A study of Mus musculus with 4 samples.

Results

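Cyclins, the cyclin-dependent kinases (CDKs) that they activate, and the CDK inhibitors were followed across 4 Affymetrix arrays of mouse cells. The members were taken by gene symbol alone: every probe set with a single annotated symbol of the form Ccn plus a letter and a number, Cdk plus a number, or one of Cdkn1a, Cdkn1b, Cdkn2a, Cdkn2b, Cdkn2c, Cdkn2d and Cdkn3. This gave 44 probe sets for 40 genes, out of 21789 probe sets for 19938 genes with 1 symbol and 35556 probe sets in all. The arrays are bexarotene-treated embryoid bodies (EBs), RA-treated EBs, untreated EBs and undifferentiated ES cells, with 1 array per condition and no replicate. All 4 come from the D3 mouse ES cell line, which is a single line. EBs are clusters of differentiating ES cells that hold early cells of several germ layers, and were kept here for 2 days in hanging drops and 5 more in suspension, with 50 nM bexarotene, with RA, or with no ligand. The RA dose is 5 µM in the sample labels and in the nanomolar range in the article, and neither equals the dose of bexarotene. Bexarotene is a synthetic agonist of the retinoid X receptor and RA is the natural ligand of the retinoic acid receptor.

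A cyclin binds a CDK and switches it on, and the inhibitors hold the kinase or the pair inactive. D-type cyclins with Cdk4 or Cdk6, and E-type cyclins with Cdk2, drive entry into S phase by phosphorylating the retinoblastoma protein, whereas A-type and B-type cyclins with Cdk1 carry cells through G2 and mitosis. Mouse ES cells are known for rapid division with a short G1 phase, high cyclin E activity and little cyclin D activity. Other family members act outside the cell cycle, in transcription, splicing or the nervous system.

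Each value is a log2 signal that the authors had normalized before deposit, and a difference is that between 2 arrays on the log2 scale. A difference of at least 1.5-fold in size (0.58 on the log2 scale) is called past the threshold, which is the one the study used. With 1 array per condition no test could be made, so each such call describes those arrays and no p-value is given. A pair of measures gives the scale. The bexarotene and RA arrays, the most alike pair, differed with a robust SD of 0.115 over all probe sets with 1 symbol. For the 777 genes that have 2 such probe sets, the differences of untreated EBs from ES cells at those probe sets lay a median of 0.108 apart, and at most 0.602 apart for 90% of them. Neither gives the spread between cultures.

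The labels held against marker genes. Of 10 pluripotency markers, 9 were past 1.5-fold lower in each EB array than in ES cells, and the mean log2 signal of the list was 9.0 with bexarotene, 9.27 with RA, 8.67 in untreated EBs and 11.28 in ES cells. The mean of 10 neural markers was 8.90 with bexarotene, 9.30 with RA, 7.55 in untreated EBs and 7.15 in ES cells. For 7 fibroblast markers it was 6.83, 6.86, 7.43 and 6.33 on the same arrays. EBs are mixtures, so more cells that express a gene and more RNA of it in each cell cannot be told apart in any value below.

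Across the whole family, the EB arrays stood apart from ES cells at a handful of genes and the EB arrays stood close to each other. Against ES cells, 8 of the 44 probe sets were past 1.5-fold higher and 2 lower with bexarotene, 8 higher and 2 lower with RA, and 5 higher and 3 lower in untreated EBs. Over all probe sets with 1 symbol, 10.3% were higher and 9.61% lower with bexarotene, 10.6% higher and 9.21% lower with RA, and 11.2% higher and 8.5% lower in untreated EBs. In all, 22.7% of members were past the threshold with bexarotene or with RA and 18.2% in untreated EBs, near the 19.9%, 19.9% and 19.7% of all named probe sets. That background holds many dim probe sets. Among probe sets at or above the median of 1 of the arrays compared, the members' shares were 23.1%, 22.5% and 17.9% in that order. For all named probe sets so chosen they were 29%, 29.1% and 28.4%. The members' shares rest on few probe sets. With bexarotene 7 of 39 were higher and 2 lower, with RA 7 and 2 of 40, and in untreated EBs 4 and 3 of 39. Of all named probe sets so chosen, 14.8% were higher and 14.2% lower with bexarotene. These shares were 15.3% and 13.8% with RA, and 16.3% and 12.1% in untreated EBs. The median log2 difference from ES cells was -0.03 for members with bexarotene, -0.02 with RA and 0.05 in untreated EBs, beside -0.03, -0.02 and -0.04 over all named probe sets.

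**Figure D1:**
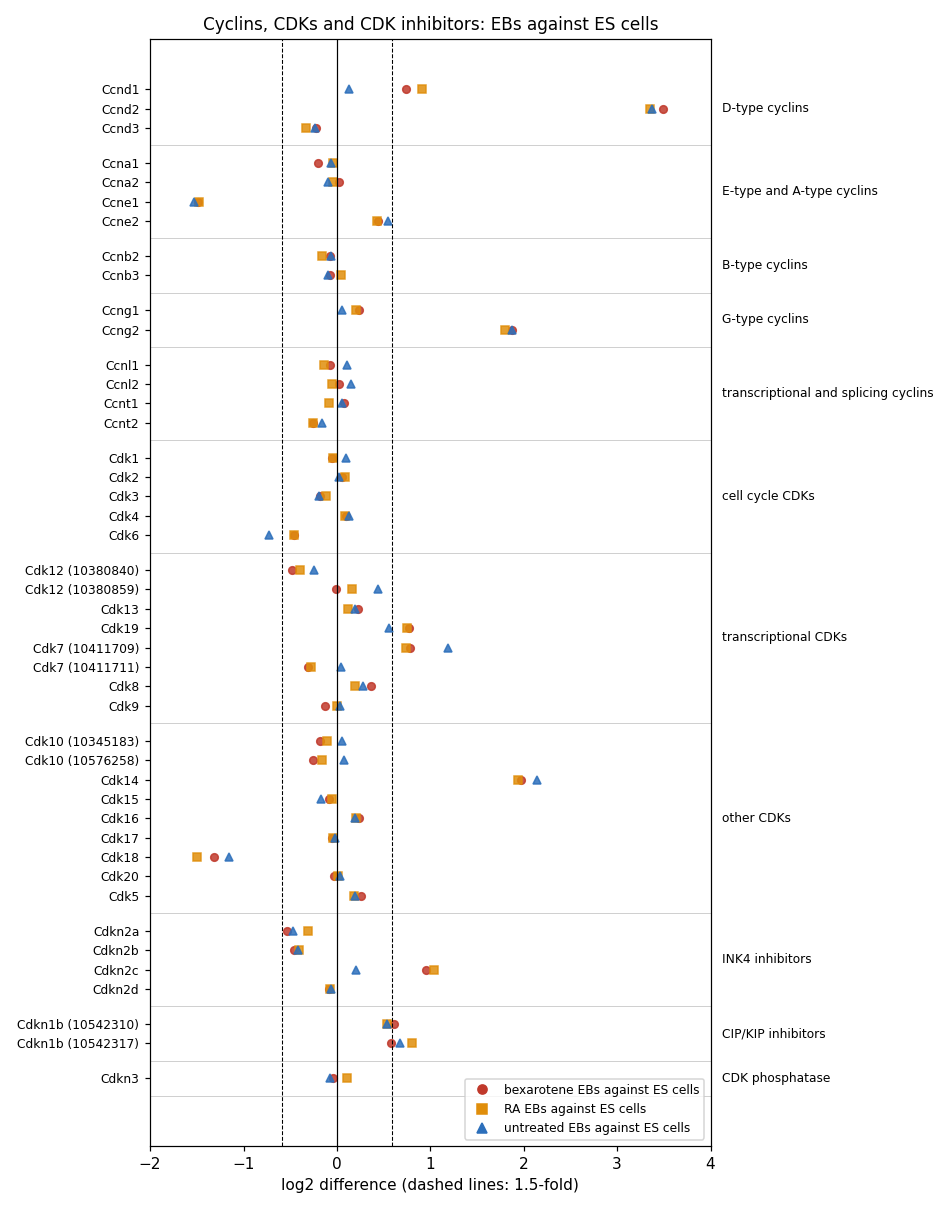
Log2 difference from the ES cell array (x axis) for each of the 44 member probe sets (rows, grouped by role), with bexarotene EBs as circles, RA EBs as squares and untreated EBs as triangles; dashed lines mark 1.5-fold. Ccnd2 lies farthest right (3.49, 3.35 and 3.38), Ccne1 and Cdk18 lie to the left of the lower line on all 3 EB arrays, and most rows cluster near 0.

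The D-type cyclins, which couple growth signals to G1, each behaved differently. Ccnd2 had a log2 signal of 11.48 with bexarotene, 11.34 with RA, 11.36 in untreated EBs and 7.99 in ES cells. All 3 EB arrays stood far above ES cells, by 11.2-fold with bexarotene, 10.2-fold with RA and 10.4-fold in untreated EBs. Ranked by difference from ES cells among the 21789 named probe sets, Ccnd2 was at place 31 from the top with bexarotene, 44 with RA and 40 in untreated EBs. The ligand arrays were close to the untreated array for this gene, with log2 differences of 0.12 for bexarotene and -0.02 for RA against untreated EBs.

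Ccnd1 separated the ligand-treated EBs from the other arrays. Its log2 signal was 11.16 with bexarotene, 11.33 with RA, 10.55 in untreated EBs and 10.42 in ES cells. Both ligand arrays were past 1.5-fold above untreated EBs, by 1.52-fold with bexarotene and 1.71-fold with RA, and above ES cells by 1.67-fold and 1.88-fold. Untreated EBs were only 1.10-fold above ES cells. The bexarotene value of 0.61 on the log2 scale lies just inside the threshold. Ccnd3, the third of these cyclins, had a log2 signal of 10.76 with bexarotene, 10.65 with RA, 10.74 in untreated EBs and 10.98 in ES cells, and was past 1.5-fold in no comparison.

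The E-type cyclins, partners of Cdk2 at the entry to S phase, went opposite ways, and 1 of them was past the threshold. Ccne1 had a log2 signal of 10.16 with bexarotene, 10.17 with RA, 10.11 in untreated EBs and 11.65 in ES cells. The 3 EB arrays lay within 0.06 of each other and were lower than ES cells by 2.80-fold with bexarotene, 2.79-fold with RA and 2.90-fold in untreated EBs. Ccne2 had a log2 signal of 7.95 with bexarotene, 7.93 with RA, 8.05 in untreated EBs and 7.50 in ES cells. Its log2 difference of 0.55 between untreated EBs and ES cells was just outside the threshold.

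The cyclins and kinases of S phase, G2 and mitosis were nearly level over the 4 arrays. Ccna2, the cyclin A of dividing somatic cells, had a log2 signal of 11.67 with bexarotene, 11.61 with RA, 11.56 in untreated EBs and 11.65 in ES cells. Ccnb2, a mitotic cyclin, was at 11.63, 11.55, 11.64 and 11.71 on the same arrays in that order. Cdk1, the mitotic kinase, had a log2 signal of 10.34 with bexarotene, 10.34 with RA, 10.49 in untreated EBs and 10.39 in ES cells, so the 4 arrays overlapped within 0.16. The germ cell cyclins Ccna1 and Ccnb3 were below the array median on all 4 arrays. Ccnb1 has no probe set with a single symbol here and was not analysed, and the same holds for the inhibitor gene Cdkn1a, whose probe set is annotated to 2 genes.

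Among the other kinases of the cell cycle, Cdk2, which pairs with cyclins E and A, ranged over the 4 arrays by less than 0.1, from 9.73 in ES cells to 9.82 with RA. Cdk4, a partner of the D-type cyclins, had a log2 signal of 12.42 with bexarotene, 12.41 with RA, 12.45 in untreated EBs and 12.32 in ES cells. Cdk6, the other partner of the D-type cyclins, was the 1 cell cycle kinase past the threshold. Its log2 signal was 9.31 with bexarotene, 9.32 with RA, 9.05 in untreated EBs and 9.78 in ES cells. Untreated EBs were 1.65-fold lower than ES cells, while the ligand arrays were 1.38-fold and 1.37-fold lower and did not reach the threshold. The ligand arrays were above untreated EBs by 0.26 with bexarotene and 0.27 with RA on the log2 scale.

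**Figure D2:**
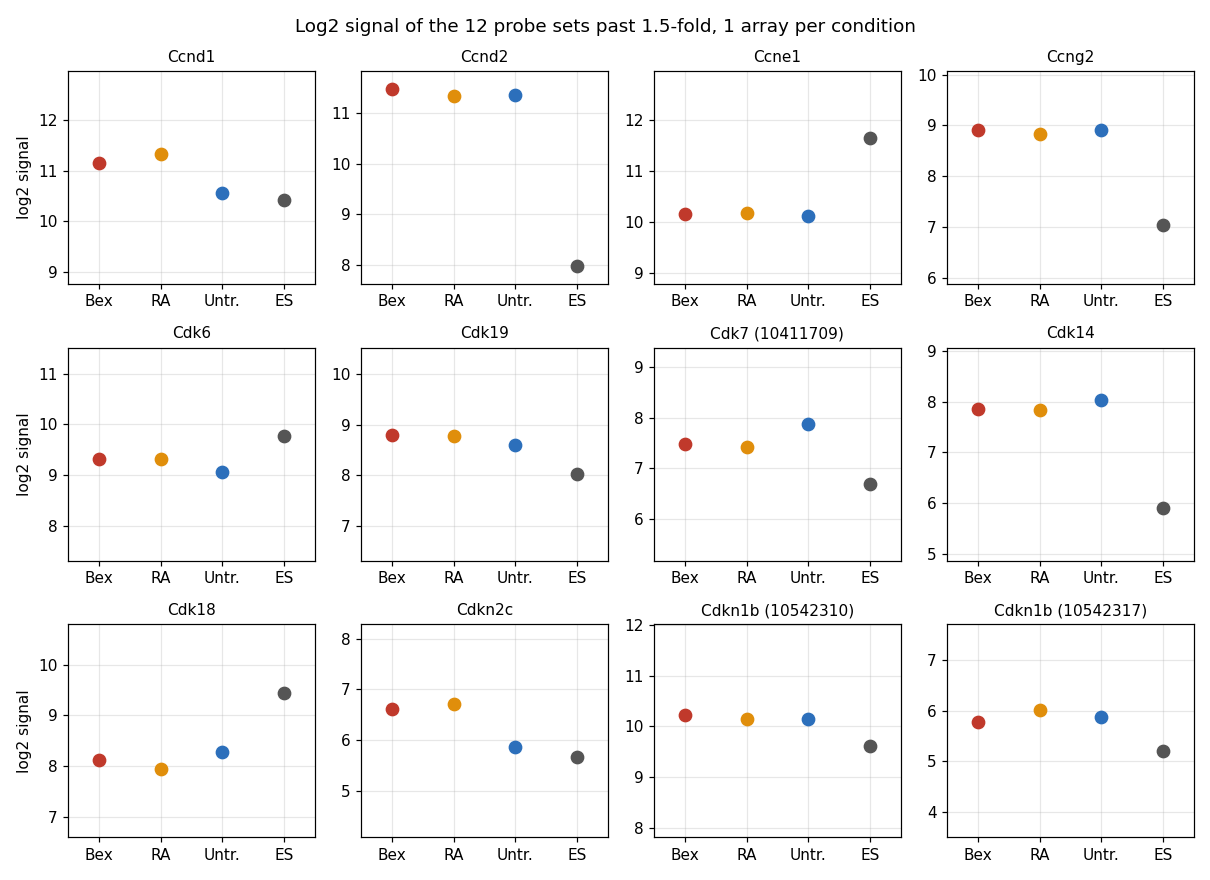
Log2 signal (y axis) of the 12 probe sets past 1.5-fold in any comparison, with 1 point per array in the order bexarotene EBs, RA EBs, untreated EBs and ES cells; each panel spans the same number of log2 units. Ccnd2, Ccng2 and Cdk14 are low in ES cells alone, Ccne1 and Cdk18 are high in ES cells alone, and Ccnd1 and Cdkn2c are higher on both ligand arrays than on the untreated and ES cell arrays.

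The inhibitors divided by gene. Cdkn2c encodes p18, an INK4 protein that binds Cdk4 and Cdk6 and keeps them from their cyclins. It had a log2 signal of 6.61 with bexarotene, 6.70 with RA, 5.87 in untreated EBs and 5.66 in ES cells. As with Ccnd1, both ligand arrays stood above the untreated and ES cell arrays. They were higher than untreated EBs by 1.67-fold with bexarotene and 1.79-fold with RA, and higher than ES cells by 1.93-fold and 2.06-fold. This is a dim probe set: its signal was below the array median with bexarotene, in untreated EBs and in ES cells, and reached it with RA only.

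The other INK4 genes lay lower in EBs or did not move. Cdkn2a, which encodes p16 and, from another reading frame, p19ARF, had a log2 signal of 6.72 with bexarotene, 6.95 with RA, 6.79 in untreated EBs and 7.26 in ES cells. Cdkn2b, which encodes p15, was at 7.00 with bexarotene, 7.05 with RA, 7.03 in untreated EBs and 7.45 in ES cells. ES cells had the highest signal for both, and none of the differences was past 1.5-fold. These genes are the only pair of members that are next to each other among protein-coding genes of the GRCm38.p6 RefSeq annotation. Cdkn2d, which encodes p19, ranged from 7.19 with bexarotene to 7.28 in ES cells.

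Cdkn1b encodes p27, a CIP/KIP inhibitor of cyclin E and Cdk2, and was higher in every EB array at both of its probe sets. The brighter one had a log2 signal of 10.21 with bexarotene, 10.14 with RA, 10.14 in untreated EBs and 9.60 in ES cells. It was 1.53-fold above ES cells with bexarotene, and with a log2 difference of 0.54 both RA and untreated EBs were just outside the threshold. The dimmer one had a log2 signal of 5.77 with bexarotene, 6.0 with RA, 5.87 in untreated EBs and 5.19 in ES cells, and was 1.75-fold above ES cells with RA and 1.59-fold in untreated EBs, with the bexarotene array just outside the threshold. The sizes were similar at both and lay to either side of 1.5-fold. Cdkn3, a phosphatase that acts on CDKs, ranged from 8.31 in untreated EBs to 8.49 with RA.

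Ccng2, an unconventional cyclin that is known to be expressed in cells leaving the cycle, was among the members with the largest differences from ES cells. It had a log2 signal of 8.92 with bexarotene, 8.84 with RA, 8.92 in untreated EBs and 7.04 in ES cells. The EB arrays were higher by 3.68-fold, 3.48-fold and 3.68-fold in that order, and alike among themselves. Ccng1, its relative and a target of p53, had a log2 signal of 11.94 with bexarotene, 11.92 with RA, 11.76 in untreated EBs and 11.71 in ES cells, and was past the threshold in no comparison.

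Of the 9 probe sets of CDKs with other roles, 2 stood apart from the rest. Cdk14, a kinase that with cyclin Y phosphorylates a Wnt co-receptor, had a log2 signal of 7.87 with bexarotene, 7.84 with RA, 8.04 in untreated EBs and 5.90 in ES cells. It was higher in EBs by 3.91-fold with bexarotene, 3.84-fold with RA and 4.40-fold in untreated EBs, and below the array median in ES cells. Cdk18, a kinase of the PCTAIRE group, had a log2 signal of 8.12 with bexarotene, 7.95 with RA, 8.28 in untreated EBs and 9.44 in ES cells. All 3 EB arrays were lower than ES cells, by 2.49-fold with bexarotene, 2.82-fold with RA and 2.23-fold in untreated EBs. Cdk16 and Cdk17 of the same group were past the threshold in no comparison, nor were Cdk5, Cdk10, Cdk15 and Cdk20, and Cdk15 was below the array median on all 4 arrays.

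The 12 probe sets of cyclins and CDKs that act in transcription and splicing belong to 10 genes. Cdk19, a kinase of the Mediator complex, had a log2 signal of 8.80 with bexarotene, 8.78 with RA, 8.59 in untreated EBs and 8.03 in ES cells. It was past 1.5-fold above ES cells with bexarotene (1.71-fold) and RA (1.68-fold) and just outside it in untreated EBs, with a log2 difference of 0.56. Its paralog Cdk8 had log2 differences from ES cells of 0.36, 0.19 and 0.27 on the same arrays.

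The 2 probe sets of Cdk7, the kinase that phosphorylates RNA polymerase II at initiation and activates other CDKs, disagreed against ES cells. The dimmer one had a log2 signal of 7.47 with bexarotene, 7.42 with RA, 7.87 in untreated EBs and 6.69 in ES cells, and was higher in EBs by 1.72-fold, 1.67-fold and 2.28-fold. The brighter one had a log2 signal of 8.51 with bexarotene, 8.53 with RA, 8.86 in untreated EBs and 8.82 in ES cells, with log2 differences of -0.31, -0.28 and 0.04 from ES cells. The gap of 1.15 between them in untreated EBs is larger than the 0.602 that holds for 90% of genes with 2 probe sets, so a direction for Cdk7 against ES cells cannot be given. Against untreated EBs they lay on the same side, at -0.40 and -0.35 with bexarotene and -0.45 and -0.32 with RA, all short of the threshold. Cdk12, a kinase of transcription elongation, also split, with log2 differences of -0.24 and 0.43 in untreated EBs against ES cells. The remaining members of this group, among them Cdk9 with its cyclins Ccnt1 and Ccnt2, were past the threshold in no comparison.

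The comparison of each ligand with untreated EBs asks what the ligands add to differentiation. Only Ccnd1 and Cdkn2c were past 1.5-fold, both higher, with each ligand, and no member was lower. This is 2 of 44 probe sets, or 4.55%, for each ligand, beside 3.82% of all named probe sets with bexarotene (1.55% higher and 2.27% lower) and 4.49% with RA (2.13% higher and 2.36% lower). The share was near the background in both. The 2 comparisons share the 1 untreated array, so they are not independent. Against untreated EBs, the difference of Cdkn2c was at place 218 from the top of all named probe sets with bexarotene and 226 with RA, and that of Ccnd1 at place 314 and 260. The members' median difference was -0.02 with bexarotene and -0.03 with RA, and -0.01 and 0.00 over all named probe sets. Neural markers moved in the same direction as Ccnd1 and Cdkn2c, with 8 of 10 past 1.5-fold higher with bexarotene and 8 of 10 with RA against untreated EBs. Of the pluripotency markers 0 of 10 and 8 of 10 were higher. Among 7 fibroblast markers the bexarotene array had 2 past the threshold, and the RA array 3, all of them lower. Of 7 listed mesoderm markers 6 were measured, and of these 1 was higher and 1 lower with bexarotene and 2 were lower with RA. Of 6 endoderm markers 1 was lower with each ligand. The part of any of these in the values of Ccnd1 and Cdkn2c was not tested.

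**Figure D3:**
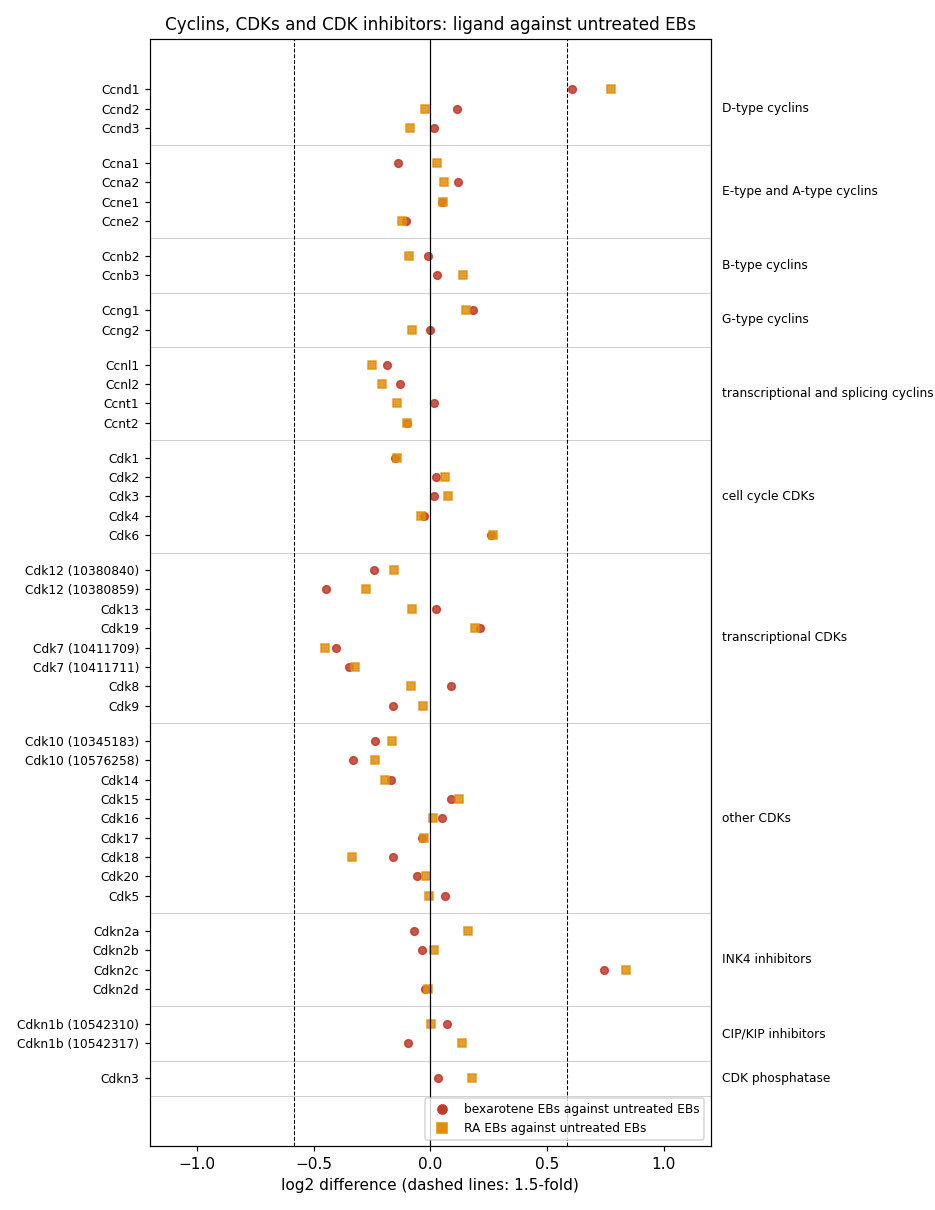
Log2 difference from the untreated EB array (x axis) for each of the 44 member probe sets (rows, grouped by role), with bexarotene EBs as circles and RA EBs as squares; dashed lines mark 1.5-fold. Ccnd1 (0.61 and 0.77) and Cdkn2c (0.74 and 0.84) are the only rows past a line.

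None of the 12 probe sets of the transcription and splicing group, in which Cdk7 and Cdk12 count 2 times each, was past the threshold against untreated EBs. Of these, 8 were below 0 with bexarotene and 11 with RA, where 52.1% and 50.3% of all named probe sets were below 0. Of the 9 probe sets of CDKs with other roles, 6 were below 0 with bexarotene and 7 with RA. The 44 members as a whole, which include both groups, did not lean as far. Of these, 23 were below 0 and 20 above with bexarotene, and 26 and 18 with RA. The median log2 difference of the transcription and splicing group was -0.15 with each ligand. Its values reached from -0.45 to 0.21 with bexarotene and from -0.45 to 0.19 with RA. Both comparisons rest on the same untreated array.

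Between the ligands no member was past 1.5-fold, as against 0.473% of all named probe sets (0.193% higher and 0.28% lower with bexarotene). Differences of bexarotene from RA ran from -0.23 to 0.18 on the log2 scale. At the lower end were Cdkn2a and the dimmer probe set of Cdkn1b, both at -0.23, and at the upper end was Cdk18 at 0.18. Ccnd1 was at -0.17 and Cdkn2c at -0.09, so both were slightly higher with RA. The robust SD over members was 0.109, close to the 0.115 over all named probe sets, and the doses were not matched.

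**Figure D4:**
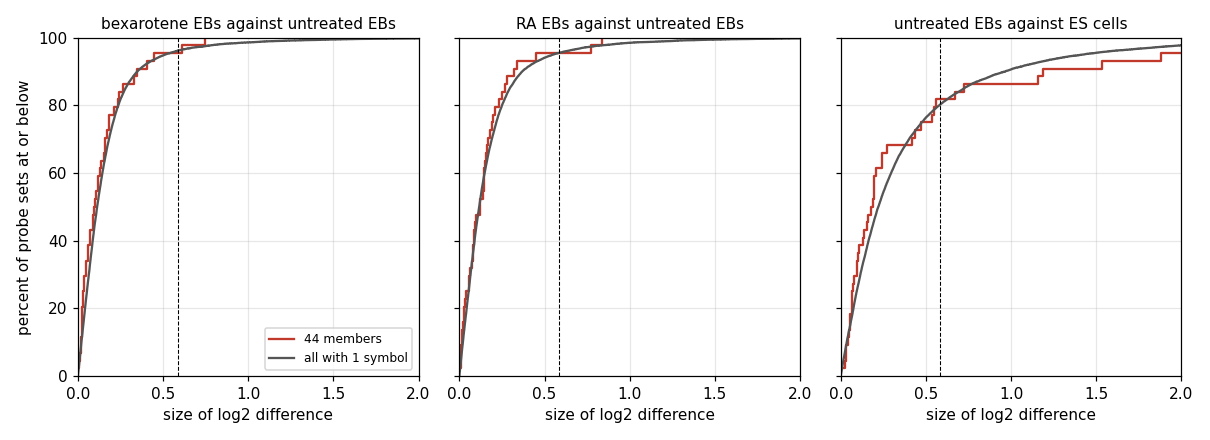
Percent of probe sets (y axis) whose log2 difference is at or below a given size (x axis, shown up to 2), for the 44 members and for all 21789 probe sets with 1 symbol, with bexarotene or RA against untreated EBs and untreated EBs against ES cells; the dashed line marks 1.5-fold. The curves of the members and of all probe sets run close together for the ligands and cross in untreated EBs against ES cells, and at 1.5-fold the members past it are 4.55%, 4.55% and 18.2%.

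Signal varied little among most members. Over the 3 EB arrays, 37 of the 44 probe sets ranged by less than 0.3 on the log2 scale, and over all 4 arrays 23 did. The median range was 0.157 over the EB arrays and 0.256 over all arrays for members, and 0.165 and 0.319 for all named probe sets. In all, 37 probe sets were above the array median on every array and 4 below it on every array. Beside the 12 probe sets past the threshold somewhere, the other 32 had log2 differences from ES cells between -0.54 and 0.55.

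Genes that work with the members also held a few large differences from ES cells. Of 53 cell cycle genes outside the family, 4 were past 1.5-fold higher and 10 lower than ES cells with bexarotene, 3 and 9 with RA, and 3 and 9 in untreated EBs, with medians of -0.14, -0.18 and -0.10. Taken in the same way, each gene by its brightest probe set, 10.2% of all 19938 genes were higher and 9.69% lower with bexarotene, 10.5% and 9.19% with RA, and 11% and 8.52% in untreated EBs, with medians of -0.03, -0.02 and -0.04. Mybl2, a transcription factor of proliferating cells, was lower by 2.82-fold, 2.60-fold and 3.28-fold in that order. Ccnb1ip1, a ubiquitin ligase of meiotic recombination that is named for binding cyclin B1, was lower by 5.77-fold, 4.64-fold and 5.14-fold. Cdkn1c, the imprinted CIP/KIP gene for p57 that the symbol rule leaves out, was higher by 2.12-fold, 2.22-fold and 1.81-fold. Genes of dividing cells did not all lie on the same side of ES cells. Cdc20, an activator of the anaphase-promoting complex, was lower by 1.60-fold with bexarotene, 1.61-fold with RA and 1.38-fold in untreated EBs, and the repressor E2f8 by 1.76-fold, 1.75-fold and 1.87-fold. The proliferation marker Mki67 had a log2 signal of 10.95 with bexarotene, 10.90 with RA, 11.02 in untreated EBs and 10.63 in ES cells, and Pcna lay between 11.89 and 11.97 on the 4 arrays, both past the threshold in no comparison.

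Against untreated EBs, none of the 53 genes was past 1.5-fold with bexarotene and 1 with RA. That gene was Myc, which drives growth and cyclin expression, with a log2 signal of 9.46 with bexarotene, 9.09 with RA, 9.95 in untreated EBs and 10.72 in ES cells. It was 1.83-fold lower with RA than in untreated EBs. Of 40 further cyclins and CDK partners listed, 28 were measured. Of these 28, 3 were past 1.5-fold higher and 3 lower than ES cells with bexarotene, 2 and 5 with RA, and 3 and 3 in untreated EBs. Ccnjl, a little-studied cyclin, was higher by 3.55-fold, 3.59-fold and 3.64-fold. Of 22 listed p53 target genes, 19 were measured, and these include the member Ccng1. Against ES cells, 1 of the 19 was higher and 5 lower with bexarotene, 2 and 5 with RA, and 1 and 5 in untreated EBs. The medians were -0.37, -0.30 and -0.29 in that order. The shares of all genes given above for differences from ES cells are the background to these counts as well. Of these 2 lists, 0 genes were past the threshold between either ligand and untreated EBs. Over all named probe sets, 3.82% were past 1.5-fold with bexarotene and 4.49% with RA against untreated EBs. These shares, of probe sets and not of genes, are the background to the counts against untreated EBs in this paragraph. At such low shares, lists of this size are likely to hold few such genes or none. The counts therefore do not set the lists apart from other genes.

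Promoter sequence was looked up in RefSeq, build GRCm38.p6, for 250 bases before to 50 bases after a gene's start. Of the 40 member genes 32 matched, with 36 promoters. No promoter was at hand for Ccna2, Ccnd1, Ccnd2, Ccne2, Cdk3, Cdk5, Cdk17 and Cdk19, so these were not searched. Among them, Ccnd1, Ccnd2 and Cdk19 were past 1.5-fold in some comparison. The letters searched on both strands were GGGCGG for the GC box, CCAAT for the box of that name, TTTGAA (the CHR element known from genes of G2 and mitosis), GTAAACA (FOXO), AGGTCA (the core to which retinoid receptors bind, in pairs), and for E2F the letters TTTCCCGC or TTTCGCGC or TTTGCCGC or TTTGGCGC. The letters of an E2F match and a GC box can share bases. A GC box was in 80.6% of member promoters and 35.7% of all 32851 promoters, a CCAAT box in 47.2% and 37.4%, the CHR letters in 13.9% and 17.9%, E2F letters in 8.33% and 2.26%, the retinoid receptor core in 13.9% and 16.3%, and the FOXO letters in 2.78% and 3.65%. E2F letters were in promoters of Cdk1, Cdk2 and Cdkn2a, none of which was past 1.5-fold. CHR letters were in promoters of Ccnb2, Cdk1, Cdk16, Cdkn2b and Cdkn3, which were not past it either.

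The promoters below are those of Ccng2 and Cdk14 (higher in all EBs), Ccne1 (lower in all EBs), both starts of Cdkn2c (higher with the ligands) and, as a gene that stayed level, Cdk1. Capitals mark every match to the letters above, and each sequence is written 5′ to 3′ on the strand of the gene.
Ccng2 (chr5:93267323-93267622, plus strand): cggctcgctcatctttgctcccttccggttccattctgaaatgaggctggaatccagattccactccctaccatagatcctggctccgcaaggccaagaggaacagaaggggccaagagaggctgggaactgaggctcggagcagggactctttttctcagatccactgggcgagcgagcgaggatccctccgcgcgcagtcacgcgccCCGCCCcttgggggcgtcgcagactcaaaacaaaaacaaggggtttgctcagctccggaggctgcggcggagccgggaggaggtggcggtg
Cdk14 (chr5:5380202-5380501, minus strand): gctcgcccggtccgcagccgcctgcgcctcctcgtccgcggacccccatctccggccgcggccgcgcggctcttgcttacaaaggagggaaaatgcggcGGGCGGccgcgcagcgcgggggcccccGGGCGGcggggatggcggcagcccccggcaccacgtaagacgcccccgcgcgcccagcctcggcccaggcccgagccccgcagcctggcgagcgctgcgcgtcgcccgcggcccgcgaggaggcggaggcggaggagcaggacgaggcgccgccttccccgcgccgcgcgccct
Ccne1 (chr7:38107441-38107740, minus strand): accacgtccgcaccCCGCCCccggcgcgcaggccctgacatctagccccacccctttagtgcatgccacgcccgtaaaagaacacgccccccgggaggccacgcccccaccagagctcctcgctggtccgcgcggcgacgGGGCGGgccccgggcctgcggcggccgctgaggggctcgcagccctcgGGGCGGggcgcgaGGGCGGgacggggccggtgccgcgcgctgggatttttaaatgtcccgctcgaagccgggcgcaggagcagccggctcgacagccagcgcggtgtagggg
Cdk1 (chr10:69352863-69353162, minus strand): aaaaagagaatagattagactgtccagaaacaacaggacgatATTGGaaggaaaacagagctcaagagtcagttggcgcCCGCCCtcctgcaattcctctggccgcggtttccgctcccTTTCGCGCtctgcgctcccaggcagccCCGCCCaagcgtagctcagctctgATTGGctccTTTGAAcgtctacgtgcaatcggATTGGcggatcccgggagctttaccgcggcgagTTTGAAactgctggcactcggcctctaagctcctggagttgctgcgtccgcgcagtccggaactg
Cdkn2c downstream start (chr4:109665323-109665622, minus strand): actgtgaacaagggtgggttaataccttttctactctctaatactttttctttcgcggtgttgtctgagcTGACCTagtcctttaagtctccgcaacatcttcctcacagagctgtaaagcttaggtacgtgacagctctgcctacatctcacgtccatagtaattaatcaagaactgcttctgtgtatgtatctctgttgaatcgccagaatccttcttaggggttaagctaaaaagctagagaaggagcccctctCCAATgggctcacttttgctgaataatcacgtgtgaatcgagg
Cdkn2c upstream start (chr4:109666707-109667006, minus strand): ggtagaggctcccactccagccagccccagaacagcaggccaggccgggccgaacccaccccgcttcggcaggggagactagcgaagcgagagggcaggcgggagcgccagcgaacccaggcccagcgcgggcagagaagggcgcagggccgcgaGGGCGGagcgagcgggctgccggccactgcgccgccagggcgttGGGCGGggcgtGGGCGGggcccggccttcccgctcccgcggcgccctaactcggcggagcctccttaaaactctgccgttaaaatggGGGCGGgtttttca
The Ccng2 promoter holds 1 GC box, that of Cdk14 has 2 and that of Ccne1 has 4, and none of these holds another of the searched motifs. The upstream start of Cdkn2c has 4 GC boxes, whereas its downstream start has no GC box, 1 CCAAT box and 1 retinoid receptor core. The Cdk1 promoter has 1 E2F match, 2 CHR matches, 3 CCAAT boxes and 2 GC boxes. These matches describe the letters in these windows and were not linked to any difference in signal.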

How the data were processed

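RNA from 4 conditions was hybridised to 1 Affymetrix array each. The authors corrected the scanner data for background, normalized the arrays together and summarized the probes in Affymetrix Expression Console, and the deposited unit is log2 signal for each probe set. The article names RMA and the submitters' processing notes name GCRMA. The arrays were not normalized again. RMA-type normalization gives all arrays nearly the same distribution, so a shift of most genes in one direction would not be seen.

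The 4 arrays were grouped by their titles. Members were found by symbol in the platform annotation, in which 1621 probe sets have several symbols and 12146 have none, and all 40 member symbols are current in RefSeq. Each probe set was kept separate. A gene of another list stands by its probe set with the highest mean. Members and lists were chosen with earlier results of these data known. The text gives every member past 1.5-fold and most core cell cycle members in full. Cdk2, Cdkn2d and Cdkn3 of the core stand by their lowest and highest values. Up to 4 genes of each other list are given, and the rest by counts. Ccnb3, Ccna1, Ccng1, Cdk8 and Cdk12, and Mki67, Pcna, Cdc20 and E2f8, were named in addition after their values were seen.

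Differences and the counts past 1.5-fold were computed in Python 3.11.15 with pandas 2.3.3 and numpy 2.4.6, and the scripts were checked on simulated arrays. No condition has a replicate, so no test was made, and the number of arrays limits the precision. Alternatives were a 2-fold threshold, quantile normalization, loess against the mean array (span 0.3, statsmodels 0.14.6), raising dim values to an array's 25th percentile, dropping probe sets under the median of both arrays compared, and the mean of a gene's probe sets.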

Additional observations from a re-analysis of the deposited data

How the results depend on the processing

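The counts of members past the threshold and their medians in the 6 comparisons kept their size (within 1.5 times for counts, within 0.115 on the log2 scale for medians) under quantile normalization, loess, the floor at the 25th percentile and the mean of a gene's probe sets. At 2-fold, 3 members were higher than ES cells with bexarotene and 4 with RA, beside 5.16% and 5.38% of all named probe sets. Members higher than untreated EBs numbered 0 with bexarotene and 0 with RA, beside 0.551% and 0.698%. When probe sets below the median of both arrays were left out, the members higher with bexarotene than untreated EBs numbered 1, because Cdkn2c is dim on both arrays. This is 2.63% of the members kept, beside 2.09% of all named probe sets kept. No difference past 1.5-fold changed its sign under any of these alternatives. With the mean of its 2 probe sets, Cdk7 was past the threshold no longer with bexarotene (0.24) or RA (0.23) against ES cells, and stayed past it in untreated EBs (0.61). The mean for Cdkn1b was past it on each EB array, at 0.59 with bexarotene, 0.67 with RA and 0.60 in untreated EBs. The bexarotene and untreated values lie just inside. No paired analysis was possible because each condition has 1 array, and no replicate could be left out for the same reason. Signal close to the background limits what can be said of Ccnb3, Cdk15 and the dimmer probe set of Cdkn1b. The same holds for Cdkn2c in untreated EBs (5.87) and ES cells (5.66) and for Cdk14 in ES cells (5.90), and so for their fold differences.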
